A study of Mus musculus with 4 samples.

Results

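The cytosolic ribosomal proteins are the protein subunits of the ribosome that translates nuclear mRNAs, and their genes were compared here between sorted peritoneal macrophages of Mac-Gata6 KO and control mice. Members were chosen by gene symbol alone, as probes named Rpl or Rps followed by a digit, with Rplp0, Rplp1, Rplp2 and Rpsa added and S6 kinase genes (Rps6k) and pseudogene symbols left out. The platform annotation gave such a symbol to 96 probes of 65 genes, and 58 genes had a probe detected above background on at least 2 arrays (detection p under 0.05). Each gene was represented by its brightest detected probe. The 58 genes were tested among 11628 genes in all, and subunit genes outside the 65 were not analysed here.

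Mac-Gata6 KO mice carried LysM-cre and a floxed Gata6, so that Cre made from the lysozyme M locus removes Gata6 in myeloid cells, and control mice are labelled only as control. Both groups were untreated C57BL/6 mice, 8 to 16 weeks old, with 2 samples in each and 1 Illumina bead array per sample. Cre and floxed alleles in the controls are not described, nor is it said whether a sample was 1 animal or a pool. P-values thus rest on these 4 samples alone, and part of the spread among them may be technical. The fit also draws the variance of each gene toward a value shared by all genes.

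Ribosomal proteins of the small subunit hold the mRNA and take part in decoding, and those of the large subunit surround the site of peptide bond formation, the exit tunnel and the stalk that recruits elongation factors. Their mRNAs are among the most abundant in most cells. Many begin with a cytosine followed by a run of pyrimidines, the terminal oligopyrimidine (TOP) tract, through which mTORC1 signalling controls their translation, and MYC and RNA polymerase I set much of the pace of ribosome production.

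Gata6, the targeted transcription factor, had a signal of 13.07 and 12.83 on the knockout arrays and 13.77 and 13.66 on the control arrays (log2 normalized intensity). The groups did not overlap, the log2 change was -0.76 ± 0.15 (SE of the fit; adjusted p = 0.0270), or 59.0% of the control signal. It no longer passed with any 1 array left out or with a fold threshold of 1.2, and the position of its probe relative to the deleted part is unknown. With the mean of all its detected probes, the log2 change of Gata6 was -0.90 ± 0.13 (adjusted p = 0.0104 by limma). Apart from the fold threshold, Gata6 passed in every setting that kept all 4 arrays. Between 16096 and 16484 probes were detected per array. Of the macrophage markers, 6 of 6 tested were detected on all 4 arrays, and their summed signals were 106183 and 111638 on the knockout arrays and 128118 and 128490 on the control arrays (linear normalized intensity). Adgre1 and Icam2 were lower in the knockout, and Csf1r (log2 change 0.46 ± 0.14, higher on both knockout arrays), Itgam (-0.44), Lyz2 (0.06) and Cd14 (-0.05) did not pass. Markers of other cell types also moved. Of the B cell markers 4 of 4 tested were higher, with summed signals of 1475 and 1707 on the knockout arrays and 698 and 715 on the control arrays, while Ms4a1 and Pax5 failed the detection filter, as did the mast cell marker Ms4a2 and the erythroid marker Alas2. Of the erythroid markers 3 of 4 were higher (882 and 866 against 182 and 194), of the mast cell markers 1 of 4 (351 and 392 against 225 and 252), and the T cell marker Cd2 was higher (337 and 357 against 93.8 and 71.7) while Cd3d, Cd3e, Cd3g and Lat failed the filter. The neutrophil marker S100a8 was lower (609 and 846 against 1605 and 1420), and S100a9, Ngp and Retnlg failed the filter. No eosinophil, dendritic cell or mesothelial marker passed the filter. The part of these cells in the results below was not tested, and fewer cells of a type and less RNA per cell cannot be told apart.

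Most ribosomal protein genes had a slightly lower signal in the knockout than in control, and few of them passed the test. Of the 58 genes 5 fell, 1 rose and 52 did not pass. The genes called numbered 6 of 58 (10.3%), against 12.3% of all genes. The 5 that fell stand beside 6.14% lower among all genes and the 1 that rose beside 6.11% higher. In the reported fit the share called was thus near the background, and other settings are given below. The log2 change was negative for 47 of 58 genes, against 51.0% of all genes. The median log2 change was -0.19 (quartiles -0.38 and -0.03), or 87.9% of the control signal, against -0.01 over all genes.

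The median signal of the 58 genes was 14.67 and 14.65 on the knockout arrays and 14.88 and 14.98 on the control arrays (log2), so both knockout arrays lay below both control arrays. Both knockout arrays were below both controls for 33 of 58 genes, against 29.2% of all genes, and above both for 6 of 58, against 27.6% of all genes. The median difference between single arrays ran from -0.24 for knockout 1 minus control 2 to -0.13 for knockout 2 minus control 2. Within groups the median difference was -0.03 for knockout 1 minus knockout 2 and 0.02 for control 1 minus control 2. The spread of single genes was wider, with a median absolute difference of 0.12 between the knockout arrays and 0.10 between the control arrays. All 58 genes were read on the same 4 arrays and are not independent replicates. With all 4 arrays kept, other settings gave 2 to 19 fallen genes and medians from -0.26 to -0.12. The 19 came with an intensity trend and robust variance, where 9.75% of all genes fell. Without background correction, and likewise with the processed values as deposited, 15 fell beside 9.82% of all genes.

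**Figure D1:**
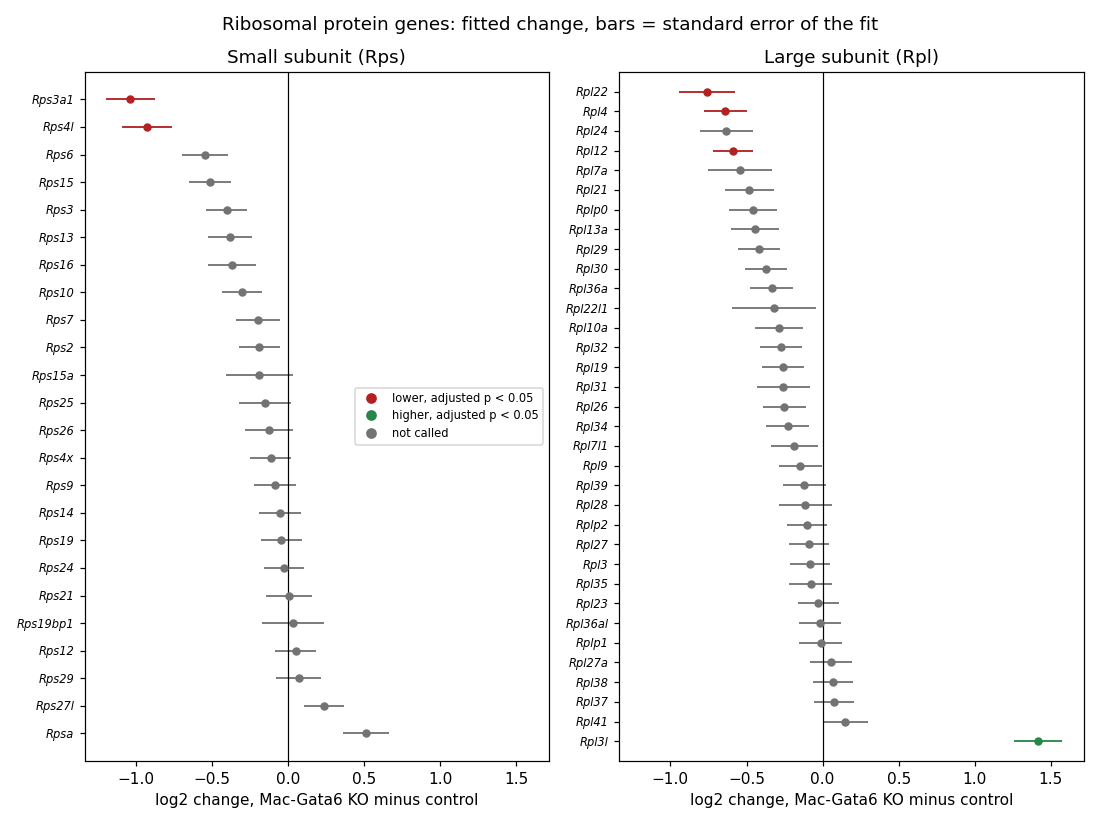
Fitted log2 change (Mac-Gata6 KO minus control) of the 58 ribosomal protein genes, small subunit symbols on the left and large subunit symbols on the right, with the standard error of the fit as bars. Most points lie left of 0 at less than 0.5, the 5 genes that fell are red, and Rpl3l, which rose, is green.

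The gene with the largest fall was Rps3a1, a small subunit protein on the side where mRNA leaves and where initiation factor eIF3 binds. Its signal was 11.28 and 11.60 on the knockout arrays and 12.49 and 12.47 on the control arrays (log2). Both knockout values lay well below both controls, which differed little from each other. The log2 change was -1.04 ± 0.16 (adjusted p = 0.0108), or 48.8% of the control signal. Rps4l, a paralog of the X-linked small subunit gene Rps4x, had 8.59 and 8.44 on the knockout arrays and 9.29 and 9.60 on the control arrays. The groups did not overlap, and the log2 change was -0.93 ± 0.16 (adjusted p = 0.0175). For Rps4x itself the signal was 15.45 and 15.43 in the knockout and 15.58 and 15.53 in control, with a log2 change of -0.11 ± 0.13 that did not pass.

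In the large subunit the 3 genes that fell were Rpl22, Rpl4 and Rpl12. Rpl22, which in mice is needed for the development of alpha-beta T cells though not for translation in general, had 10.81 and 10.36 on the knockout arrays and 11.35 and 11.33 on the control arrays (log2). The knockout arrays differed from each other by more than the controls did, without overlap between groups, and the log2 change was -0.76 ± 0.18 (adjusted p = 0.0499). Rpl4, whose extended loop lines the peptide exit tunnel, had 11.10 and 11.25 in the knockout and 11.87 and 11.76 in control, with a log2 change of -0.64 ± 0.14 (adjusted p = 0.0372). Rpl12, at the base of the stalk, gave the closest replicates of these genes. Its signal was 14.36 and 14.40 in the knockout and 14.98 and 14.96 in control, with a log2 change of -0.59 ± 0.13 (adjusted p = 0.0380).

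These calls depended on the arrays and the settings. With 1 array left out, Rps3a1 passed without knockout 2, Rps4l without control 1 and Rpl22 without knockout 1, each in that setting alone, Rpl4 and Rpl12 passed in none, and no ribosomal protein gene fell without control 2. Rpl4, Rpl12 and Rpl22 did not pass with the replicate number as a block, without a detection filter or with a fold threshold of 1.2. With median scaling Rpl4 did not pass (adjusted p = 0.0858) and Rps6 did, and Rpl22 did not with the mean of all detected probes (adjusted p = 0.0512) or in the fit over probes (adjusted p = 0.0570).

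**Figure D2:**
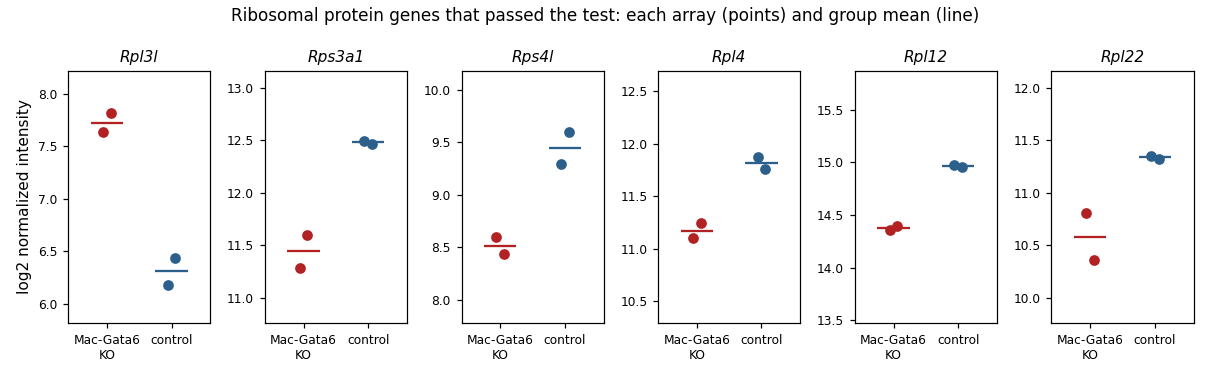
Log2 normalized intensity on each array (points) and the group mean (line) for the 6 ribosomal protein genes that passed the test, Mac-Gata6 KO left and control right in each panel; every panel spans the same range of log2 units. The groups do not overlap for any of the 6 genes, with Rpl3l higher and the others lower in the knockout. The genes were chosen by the test on these same arrays, so this separation is no further evidence.

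Rpl3l was the gene that rose. It is a paralog of the large subunit gene Rpl3, which shapes the peptidyl transferase centre, and in mice and humans it is known mainly from striated muscle. Its signal was 7.63 and 7.82 on the knockout arrays and 6.18 and 6.44 on the control arrays (log2), detected on all 4. Both knockout values lay above both controls, the log2 change was 1.42 ± 0.16 (adjusted p = 0.00369), and it passed with any 1 array left out. Without background correction, and from the deposited processed values, the log2 change was 0.74 and also passed. The parent gene Rpl3 had 15.09 and 15.10 in the knockout and 15.20 and 15.15 in control, a log2 change of -0.08 ± 0.13 that did not pass.

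The other paralogs did not pass. Rps27l, a paralog of Rps27 known in humans as a p53 target, had 14.46 and 14.41 on the knockout arrays and 14.20 and 14.20 on the control arrays. The groups did not overlap, with the knockout arrays higher, and the log2 change was 0.24 ± 0.13 (adjusted p = 0.310). Rpl22l1, the paralog that can take the place of Rpl22, varied most between replicates, at 7.97 and 8.53 in the knockout and 8.89 and 8.25 in control. Its groups overlapped (log2 change -0.32 ± 0.28), as did those of Rpl7l1, related to Rpl7 (-0.19 ± 0.16), and of Rpl36al, a copy of Rpl36a (-0.01 ± 0.14). One further gene is a member by its symbol alone. Rps19bp1 encodes a protein that binds RPS19 and is not a ribosome subunit, and its log2 change was 0.03 ± 0.20. Probes can bind transcripts of a close paralog or of a processed pseudogene, which ribosomal protein genes have in number, so the values of such pairs are uncertain as to the member.

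The start sites of the genes that passed are shown because TOP mRNAs are defined by their first bases. Each line gives 15 bases before and 15 bases from the annotated start on, from RefSeq promoters of build GRCm38.p6, with the longest run of pyrimidines in capitals. Rpl38 is added as a member whose start base is a cytosine followed by at least 4 pyrimidines, and every listed start of a gene is given. Rps4l had no matching entry.
Rps3a1, chr3:86142654-86142683, minus strand: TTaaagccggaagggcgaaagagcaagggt
Rpl4, chr9:64173372-64173401, plus strand: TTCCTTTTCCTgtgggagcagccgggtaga
Rpl12, chr2:32961697-32961726, plus strand: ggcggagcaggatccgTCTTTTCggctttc
Rpl22, chr4:152325711-152325740, plus strand: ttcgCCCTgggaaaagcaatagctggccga
Rpl22, chr4:152324421-152324450, plus strand: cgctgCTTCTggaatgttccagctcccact
Rpl3l, chr17:24727811-24727840, plus strand: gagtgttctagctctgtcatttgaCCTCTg
Rpl3l, chr17:24732670-24732699, plus strand: gtcatcaacagctacagtgCCCCaaatgtc
Rpl38, chr11:114668565-114668594, plus strand: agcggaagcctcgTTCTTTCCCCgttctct
The runs differ in length and place, with 11 pyrimidines ahead of the start in Rpl4, 7 just after the start in Rpl12, 10 across it in Rpl38 and at most 2 in Rps3a1. A gene was counted if any of its listed starts matched. A cytosine at the annotated start base followed by at least 4 pyrimidines, read on the transcribed strand, was found for 8 of 49 members with an entry (16.3%). It was found for 2.77% of other tested genes and 3.01% of all genes with an entry, and for 2.51% of promoters counted singly. Anywhere in the 30 bases such a run was present in 63.3% of members, 43.1% of other tested genes and 40.3% of all genes with an entry. Counted singly, 36.4% of promoters had it. Of the 4 fallen genes with an entry, 0 had it at the start base and 3 in the window. An annotated start can differ from the start used in these cells, so a missing match says only that these letters are not in this window.

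Small subunit genes other than the paralogs numbered 21, of which 1 fell and 20 did not pass, with a median log2 change of -0.15. Of the 21 changes 17 were negative, beside 51.0% of all genes, and 6.14% of all genes were lower. Rps6, the substrate of the S6 kinases downstream of mTORC1, had 13.93 and 14.01 on the knockout arrays and 14.39 and 14.64 on the control arrays. Rps15, in the head near the decoding centre, had 13.67 and 13.76 in the knockout and 14.28 and 14.17 in control. Neither pair of groups overlapped, and the log2 changes of -0.55 ± 0.15 and -0.51 ± 0.14 missed the threshold (adjusted p = 0.0715 and 0.0655). Also lower on both knockout arrays, without passing, were Rps3, which lines the channel where mRNA enters, at -0.40 ± 0.13, Rps13 at -0.38 ± 0.14, Rps16 at -0.37 ± 0.16 and Rps10 at -0.30 ± 0.13. Other members of the decoding face and its neighbours moved by less. Rps2 had a log2 change of -0.19 ± 0.13, Rps9 of -0.09 ± 0.14, Rps14 of -0.05 ± 0.14 and Rps19, the gene most often mutated in human Diamond-Blackfan anaemia, of -0.04 ± 0.13.

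At the bright end, Rps12 had 15.72 and 15.70 on the knockout arrays and 15.70 and 15.62 on the control arrays, and Rps24 had 15.59 and 15.61 in the knockout and 15.62 and 15.63 in control. Both changes were smaller than their standard errors, with log2 changes of 0.05 ± 0.13 for Rps12, which was -0.049 with median scaling, and -0.03 ± 0.13 for Rps24. At the dim end stood Rpsa, known also as the laminin receptor precursor, with 6.54 and 6.39 in the knockout and 5.85 and 6.05 in control. Its knockout arrays were both higher, and its log2 change of 0.51 ± 0.15 did not pass (adjusted p = 0.0839) and was 0.20 without background correction. Rps15a, at 6.06 and 6.34 in the knockout and 6.67 and 6.11 in control, overlapped between groups. A dim probe here says little of the transcript, since signals of different probes do not compare levels of genes. A further Rpsa probe was detected on no array.

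Large subunit genes other than the stalk and the paralogs numbered 27, of which 3 fell and 24 did not pass, with a median log2 change of -0.26, and 23 of the 27 changes were negative. Rpl24, which bridges to the small subunit, had 12.72 and 13.10 on the knockout arrays and 13.62 and 13.47 on the control arrays, and its log2 change of -0.63 ± 0.18 did not pass (adjusted p = 0.0714). The size was close to that of Rpl4, with a wider spread between the knockout arrays. Rpl7a had a log2 change of -0.54 ± 0.21 and Rpl21 of -0.48 ± 0.16. Rpl13a, which in human monocytes also leaves the ribosome to silence inflammatory mRNAs, was at -0.44 ± 0.16 with 11.23 and 11.53 in the knockout against 11.84 and 11.80 in control. Rpl29 followed at -0.42 ± 0.14 and Rpl30 at -0.37 ± 0.14, each lower on both knockout arrays and neither past the threshold.

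Smaller changes were found for Rpl10a (-0.29 ± 0.16), Rpl32 (-0.27 ± 0.14), Rpl19 (-0.26 ± 0.14) and Rpl26 (-0.25 ± 0.14), the last known in humans to bind p53 mRNA. The brightest large subunit probes barely moved. Rpl9 had 15.41 and 15.55 on the knockout arrays and 15.58 and 15.67 on the control arrays, a log2 change of -0.15 ± 0.14. Rpl38, which in mice supports translation of Hox mRNAs, had 15.61 and 15.55 in the knockout and 15.50 and 15.52 in control, and Rpl37 had 15.57 and 15.55 in the knockout and 15.47 and 15.50 in control. The knockout arrays were slightly higher for both, with log2 changes of 0.07 ± 0.13 each, which turned to -0.028 and -0.043 with median scaling. For Rpl38 the 95% interval of the log2 change ran from -0.25 to 0.39 at this probe, so changes up to that size are not excluded by the fit. A dimmer detected Rpl38 probe went the other way, with 9.43 and 9.72 in the knockout and 9.93 and 9.95 in control. Its log2 change was -0.36 ± 0.16 in a fit over all detected probes and did not pass.

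The stalk proteins, which recruit and activate elongation factors, did not pass. Rplp0, to which the others attach, had 8.79 and 8.53 on the knockout arrays and 9.19 and 9.03 on the control arrays, with a log2 change of -0.46 ± 0.16 (adjusted p = 0.126). Rplp2 and Rplp1 had log2 changes of -0.11 ± 0.13 and -0.01 ± 0.14.

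The members that failed the detection filter were Rpl14, Rpl17, Rpl39l, Rpl6, Rps20, Rps23 and Rps23rg1, the last a retroposed copy of Rps23 in mice. None of their probes was detected on any array, so no change is given for them.

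The size of the change went with the brightness of the probe. Among the 27 members with a mean log2 signal of 15 or more, 0 passed by limma in the reported fit, and 0 had an unadjusted p under 0.05. With an intensity trend and robust variance, Rpl10a, Rpl32 and Rps16 of these fell, in a setting where 9.75% of all genes fell. The median log2 change of the 27 was -0.08, with 20 negative. Among the 11 between 14 and 15 the median was -0.30 with 10 negative, and 1 fell. All 5 between 12 and 14 and all 11 between 8 and 12 had a negative change, with medians of -0.42 and -0.48, and 4 of those between 8 and 12 fell. The 4 members below 8 had a median of 0.27 and held Rpl3l and Rpsa.

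The medians of other genes in the same ranges showed no such shift. Their medians were 0.02 for 112 genes at 15 or more, -0.01 for 170 between 14 and 15, 0.04 for 1050 between 12 and 14 and -0.01 for 5777 between 8 and 12. Between 8 and 12, 51.7% of the other genes had a negative change, against 11 of 11 members. Signal and change had a Spearman rho of 0.48 over all 58 members, against 0.02 over all other genes. Without the 4 members below 8, whose median change was 0.27, it was 0.73 over 54 members, against 0.02 over other genes in that range. These are descriptions across genes that share the same arrays, and the ranges were chosen after the values were seen. At 15 or more, 2 of the 112 other genes passed (1.79%), against 10.8% between 8 and 12. In the reported fit, few genes of any kind thus passed among the brightest probes. The changes of other genes had quartiles of -0.09 and 0.10 at 15 or more, and of -0.21 and 0.20 between 8 and 12. Other genes changed in both directions, so their medians and rho cannot show whether changes shrink with brightness. Raw intensities of the members reached 57695, close to the highest on any array (59519), and whether bright probes understate changes was not tested.

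**Figure D3:**
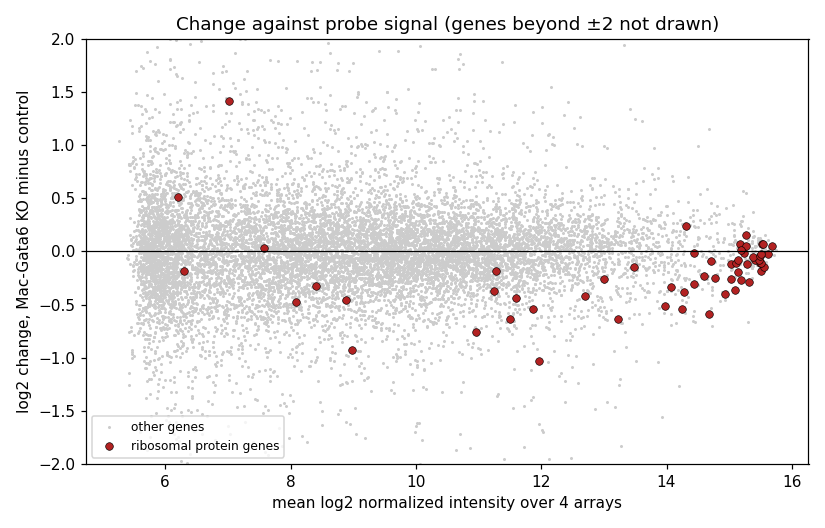
Log2 change (Mac-Gata6 KO minus control) against mean log2 normalized intensity over the 4 arrays, with the 58 ribosomal protein genes in red and other genes in grey; genes beyond 2 in either direction are not drawn. From a signal of 8 up to 15 nearly all red points lie below 0, and above 15 they close in on it.

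Further probes of the same genes gave a second reading. Of the 58 genes 15 had more than 1 detected probe, with 20 probes beside the brightest, and all 20 had a negative log2 change, from -0.95 to -0.01 with a median of -0.55. Both knockout arrays lay below both controls for 18 of the 20, against 27.8% of all probes. The brightest probes of the same 15 genes had a median of -0.19, and further probes of other named genes, 5065 in number, had a median of 0.02 with 48.2% negative. In 14 of 15 genes the dimmest detected probe changed more negatively than the brightest, the exception being Rpl7l1, against 46.2% of 3506 other genes. Other genes changed in both directions, so this share does not tell whether their changes were larger at dimmer probes. In a fit over all 16713 detected probes, 3 of the 20 further probes were lower, against 5.06% of all probes, and 0 higher.

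The 3 probes belong to Rpl28, Rpl23 and Rpl31, genes singled out here after their values were seen. Rpl28 had 6.19 and 6.31 on the knockout arrays and 7.27 and 7.13 on the control arrays at its dim probe, a log2 change of -0.95 ± 0.15 (adjusted p = 0.0119). At its bright probe it had 14.86 and 15.25 in the knockout and 15.23 and 15.10 in control, with overlap and a log2 change of -0.11 ± 0.18. Rpl23, on the face that joins the small subunit, had 11.17 and 10.89 in the knockout and 11.82 and 11.73 in control at its dimmest detected probe (log2 change -0.74 ± 0.16, adjusted p = 0.0370), while its brightest probe was at -0.03 ± 0.14.

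Rpl31, near the exit of the peptide tunnel, had 10.38 and 10.54 in the knockout and 11.09 and 11.21 in control at its dimmest probe. The groups were well apart, and the log2 change was -0.69 ± 0.15 (adjusted p = 0.0385), against -0.26 ± 0.18 at the brightest. Rps24 showed the same contrast without passing, with -0.60 ± 0.18 and -0.62 ± 0.17 at its dimmer probes and -0.03 ± 0.14 at the brightest. Rps12 did not. Both of its probes were bright, with log2 changes of 0.05 and -0.01. Probe sequences are not used here, so which transcript form each probe reads is unknown.

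**Figure D4:**
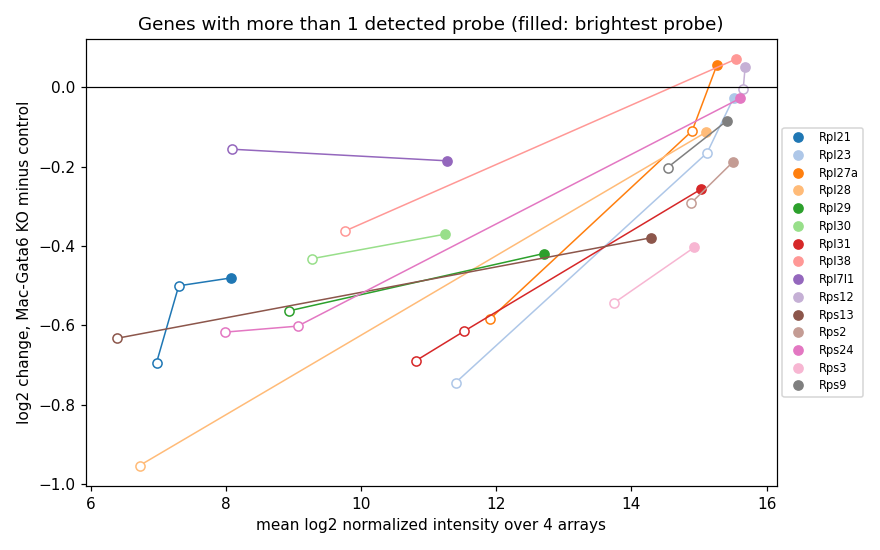
Log2 change (Mac-Gata6 KO minus control) against mean log2 normalized intensity for every detected probe of the 15 genes with more than 1, lines joining probes of a gene, filled points the brightest probe and open points the others. All 20 open points lie below 0, and lines fall toward dimmer probes for 14 of the 15 genes.

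Few genes of the rest of the translation machinery passed the test, beside 6.11% of all genes higher and 6.14% lower, and 27.9% of all genes with an unadjusted p under 0.05. Of 10 genes on the elongation factor list, which takes in Eef2k, Eef1e1, Tufm and Tsfm, 0 passed by limma. Of these, 1, Eef2k, had an unadjusted p under 0.05. The median log2 change of the 10 was -0.20, with 8 of 10 negative. Eif5a (0.25 ± 0.16) and Eef1a1 (0.13 ± 0.14) were higher on both knockout arrays without passing. Eef1g, a subunit of the complex that recharges elongation factor 1A, had 14.22 and 14.10 on the knockout arrays and 14.45 and 14.41 on the control arrays (log2 change -0.27 ± 0.14, adjusted p = 0.260), and Eef2k, the kinase that inhibits elongation factor 2, was at -0.61 ± 0.20 (adjusted p = 0.114), with -0.34 without knockout 1, -0.88 and a pass without knockout 2, and -0.32 with the mean of all detected probes. Eef1b2 was at -0.38 ± 0.21 and Eef1e1 at -0.30 ± 0.16. Other genes known for TOP mRNAs, some of them elongation or initiation factors, had 1 fallen of 17, 13 negative and a median of -0.19. The RNA-binding protein gene Hnrnpa1 fell, with 11.18 and 11.26 in the knockout and 12.04 and 11.79 in control (log2 change -0.69 ± 0.15, adjusted p = 0.0363). Btf3, which acts on nascent chains, was at -0.30 ± 0.15, and the nucleolar protein gene Npm1, also a ribosome assembly factor, at -0.34 ± 0.14. Neither passed.

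Initiation factors had 1 fallen of 31 and a median of -0.07. Eif4e3, a cap-binding protein related to eIF4E, fell with 10.89 and 10.93 in the knockout and 11.41 and 11.62 in control (log2 change -0.61 ± 0.14, adjusted p = 0.0465). Eif3a, Eif3l and Eif2s3x, subunits of the factors eIF3 and eIF2, were at -0.32 ± 0.13, -0.26 ± 0.14 and -0.27 ± 0.13 and did not pass, and with the mean of all its detected probes Eif3a was at 0.11. Ribosome biogenesis genes had 0 called of 65 by limma and 1 with an unadjusted p under 0.05, and their median was -0.08. Beside Npm1, the smallest p belonged to Rrp12 (0.42 ± 0.15), Bop1 (0.31 ± 0.15) and Pdcd11 (0.58 ± 0.29), each higher on both knockout arrays. Pdcd11 was at 0.14 without knockout 1 and at 1.03, past the threshold, without knockout 2. RNA polymerase I and III genes had 0 called of 23 by limma and 5 with an unadjusted p under 0.05, and their median was -0.17. Taf1a, of the polymerase I selectivity factor, was at -0.59 ± 0.15 (adjusted p = 0.0540), and the polymerase I subunits Polr1b and Polr1a at -0.64 ± 0.20 and -0.41 ± 0.16, while the polymerase III subunit Polr3c was at 0.55 ± 0.17, at 0.28 without background correction and at 0.14 with the mean of all detected probes. None of these passed in the reported fit. In the mitochondrial ribosome, which translates mitochondrial mRNAs, 1 of 72 genes fell, and its median of 0.02 lay near that of all genes. Mrps27 had 7.02 and 6.44 in the knockout and 8.04 and 7.76 in control (log2 change -1.17 ± 0.23, adjusted p = 0.0246), and of the arrays left out in turn it passed without knockout 1 alone. Its change was -0.67 without background correction, where it passed. Mrps27 did not pass without a detection filter or with a fold threshold of 1.2 (adjusted p = 0.054 in each by limma). Mrpl1 (-0.42 ± 0.14), Mrpl9 (-0.35 ± 0.13) and Mrpl39 (0.40 ± 0.14) did not pass, the last at 0.18 without background correction. In that setting Mrpl1 was lower (adjusted p = 0.0403 by limma).

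Regulators around mTORC1 and MYC had a positive median, with 3 risen, 1 fallen and 22 not passed of 26, a median of 0.28 and 18 positive, beside 6.11% of all genes higher and 6.14% lower. The list holds activators and inhibitors together, so its median gives no direction of mTORC1 or MYC activity, which was not tested. Sesn2, a leucine sensor that restrains mTORC1, rose, with 7.88 and 7.69 on the knockout arrays and 6.65 and 6.62 on the control arrays (log2 change 1.15 ± 0.14, adjusted p = 0.00502). Ddit4, another inhibitor of mTORC1 signalling, rose by 0.78 ± 0.17 (adjusted p = 0.0345), and Tbc1d7, a subunit of the TSC complex, by 0.62 ± 0.13 (adjusted p = 0.0327). Pdcd4, a translation inhibitor degraded after S6 kinase signalling, had 11.42 and 11.50 in the knockout and 12.25 and 12.11 in control and fell by 0.72 ± 0.14 (adjusted p = 0.0239). Without background correction Sesn2 was at 0.64 and Ddit4 at 0.37, both still past the threshold. Without a detection filter Ddit4 and Tbc1d7 did not pass (adjusted p = 0.0657 and 0.0523 by limma), nor did Eif4e3 and Hnrnpa1. With a fold threshold of 1.2 these 4 genes and Pdcd4 did not pass (adjusted p = 0.116 for Ddit4 and 0.0934 for Pdcd4 by limma). Sesn2 passed in both settings. With the mean of all detected probes Tbc1d7 (0.05, adjusted p = 0.883), Eif4e3 (-0.40, adjusted p = 0.122) and Hnrnpa1 (-0.54, adjusted p = 0.0692) did not pass. Eif4e3 and Hnrnpa1 also did not pass with median scaling (adjusted p = 0.0945 and 0.0710). With 1 array left out Eif4e3, Hnrnpa1, Tbc1d7 and Pdcd4 did not pass, Ddit4 passed without knockout 2 alone, and Sesn2 passed each time.

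**Figure D5:**
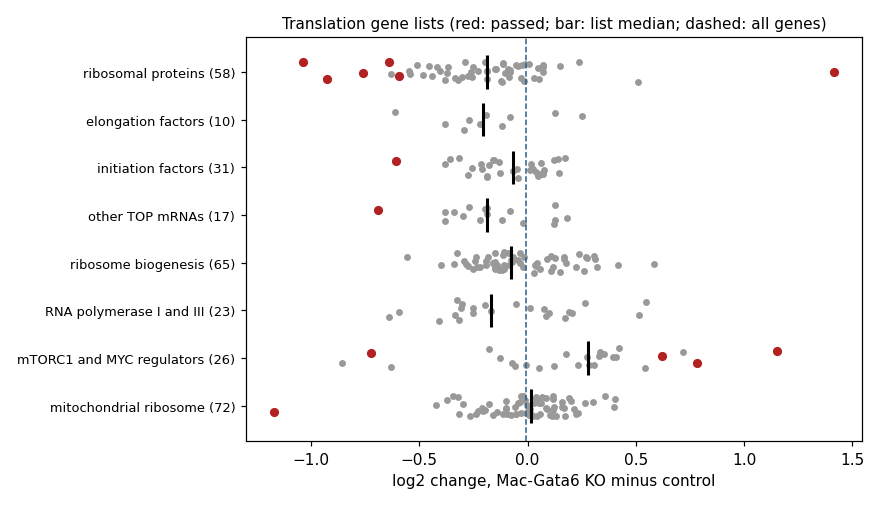
Log2 change (Mac-Gata6 KO minus control) of each tested gene in the ribosomal protein set and 7 lists of translation genes, 1 row per list with the number of genes in brackets; red points passed the test, the bar is the list median and the dashed line the median of all genes. List medians lie between -0.20 and 0.28, with mTORC1 and MYC regulators the list furthest to the right.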

How the data were processed

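Sorted peritoneal macrophages were measured on Illumina bead arrays, 1 array per sample. The authors deposited unnormalized probe intensities and, for each, a detection p-value, per the file headers. Their processed intensities, also deposited, follow 1 distribution in all 4 columns (medians 142.05 to 142.14). The array reading software is unknown here. Probes numbered 45281, of which 34885 had 1 symbol in the platform annotation, 18 several and 10378 none.

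Intensities were corrected for background from the detection p-values and quantile normalized on the log2 scale with neqc (offset 16) of limma 3.58.1 in R 4.3.3. Probes detected (p under 0.05) on 2 or more arrays were kept, 16713 in all, 1 per gene (highest mean), giving 9200 named genes and 2428 unnamed probes. Knockout minus control was fitted with lmFit and eBayes over all 11628, two-sided, with Benjamini-Hochberg adjustment and calls under 0.05. Values after ± give the fit's standard error, with 2 arrays per group. They use the variance moderated by eBayes, so they are not the spread of that gene's replicates alone. The number of arrays limits the precision. Named genes were Gata6, called members, the 5 brightest and 3 dimmest, paralogs, and up to 4 genes of smallest p per list; others were chosen after their values were seen. Members and lists were chosen with earlier results of these data known. Same-numbered arrays did not deviate together (correlation -0.13 over genes).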

Additional observations from a re-analysis of the deposited data

How the results depend on the processing

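The median log2 change of the ribosomal protein genes was negative in every setting run, and Rpl3l rose in each. With median scaling 5 fell beside 5.9% of all genes, Rps6 in place of Rpl4. The percentages that follow give the share of all genes lower in the same setting. The number fallen, 5 in the reported fit (6.14%), was 15 both without background correction and from the processed values as deposited (9.82% each). It was 19 with an intensity trend and robust variance (9.75%), 8 with an offset of 50 (8.33%) and 8 with detection on all 4 arrays (7.71%). It was 2 with no detection filter (of 65 genes, 1.73%), 2 with a fold threshold of 1.2 (3.35%) and 2 with the replicate block (4.82%). Leaving out 1 array gave 0 to 1. The median, -0.19, was -0.26 with median scaling, -0.12 with no detection filter and -0.23 to -0.12 with 1 array left out. Over all genes 1098 were higher and 1142 lower without background correction, 1100 and 1142 from the deposited processed values, 1089 and 1134 with trend and robust variance, 414 and 389 with the fold threshold, and 249 to 390 and 238 to 416 with 1 array left out, where the lone array is assumed to vary like the other group. Among the genes named by the rule above, log2 changes changed sign for Rps12 (-0.049), Rpl38 (-0.028) and Rpl37 (-0.043) with median scaling. With the mean of all kept probes they did so for Rpl38 (-0.15) and Eif3a (0.11). With 1 array left out Rps15a ran from -0.47 to 0.092, Rps19bp1 from -0.20 to 0.28 and Rpl36al from -0.072 to 0.044. Other ribosomal protein genes also changed sign. Of the 58, 54 were negative with median scaling and 49 with the mean of all kept probes, against 47 in the reported fit. Apart from fewer arrays and the fold threshold, the cause was not tested. The replicate block changed the calls of Rpl4, Rpl12, Rpl22, Eif4e3, Hnrnpa1 and Tbc1d7 to not passed, and no other call among the named ribosomal protein genes, Gata6 and genes of the translation and mTORC1 lists. Cell type markers, further probes and the p53, ATF4 and small nucleolar RNA host lists were not run under the alternatives. Crossed replicate numbers, chosen after seeing the data, left 5 ribosomal protein genes lower and 1 higher.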

Other observations

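Several genes induced by p53 rose in the knockout; this list, and those of the next paragraph, were chosen after other results of these data were seen. Of 12 measured members 6 rose, 0 fell and 6 did not pass, against 6.11% of all genes higher, and all 12 had a positive log2 change, with a median of 0.47 against -0.01 over all genes. Phlda3, an inhibitor of Akt, had 8.91 and 9.06 on the knockout arrays and 7.11 and 6.71 on the control arrays (log2 change 2.08 ± 0.18). Cdkn1a, the p21 cell cycle inhibitor, had 12.80 and 12.56 in the knockout and 11.41 and 11.74 in control (log2 change 1.10 ± 0.18, adjusted p = 0.0119). The groups did not overlap for either gene. Mdm2, the ligase that degrades p53, rose by 0.73 ± 0.14, Zmat3 by 0.94 ± 0.16, Trp53inp1 by 0.88 ± 0.15 and Bbc3 by 0.57 ± 0.14. Rps27l, given above, is on this list and did not pass.

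Of 17 measured genes of the ATF4 stress response 3 rose and 0 fell, beside 6.11% of all genes higher, with a median of 0.23. Asns, asparagine synthetase, had 8.38 and 8.53 in the knockout and 7.63 and 7.55 in control (log2 change 0.86 ± 0.14), beside Sesn2 and Ddit4, while Atf4 itself was at 0.05 and did not pass. Genes that host small nucleolar RNAs in their introns, several of them with TOP starts, had 2 fallen of 3 measured, beside 6.14% of all genes lower. Snhg5 had 8.20 and 8.03 in the knockout and 8.79 and 9.10 in control, and Snhg12 had 8.99 and 9.03 in the knockout and 9.66 and 9.64 in control. The groups did not overlap for either, with log2 changes of -0.83 ± 0.17 and -0.65 ± 0.13.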
